A study of Mus musculus with 3 samples.

Results

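Contactins and contactin-associated proteins are neuronal cell adhesion molecules, and 10 of their genes were examined here for 5-hydroxymethylcytosine (5hmC) in mouse cerebellum: Cntn1, Cntn2, Cntn3, Cntn4, Cntn5, Cntn6, Chl1, Cntnap2, Cntnap4 and Cntnap5a. Members were taken by name, and earlier results of these data were known when they were chosen. Every deposited 10 kb bin that overlapped the RefSeq body of a member by at least 1 bp was assigned to it, and the 100 kb on either side served as flanks. All 10 genes were found among 21676 protein-coding genes with a value. They covered 718 of the 264399 bins in the table, from 5 bins at Cntn2 to 225 bins at Cntnap2, and every bin had a value in each library. No other protein-coding gene overlapped any of the 10 bodies.

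There were 3 libraries of genomic DNA from mouse cerebellum, with 1 per group: cerebellum after chronic sleep deprivation by DDD-seq, cerebellum labelled normal/control by ACE-seq, and normal (control) cerebellum by DDD-seq. DDD-seq is double-stranded DNA deamination sequencing, in which 5hmC is glycosylated and the remaining cytosines are deaminated by the deaminase domain SsdAcat. ACE-seq also reads 5hmC as the cytosines that a deaminase leaves, but the labels give that library the same protocol text as the others, and no other source used here names its own deaminase. Strain, sex, age, number of animals and the length of sleep deprivation are likewise not given there. The names of the DDD-seq columns hold the word "all", so each may be a pool of several runs or libraries, while the ACE-seq column is numbered. With 1 column of values per group, called a library here, there was no replicate and no test. Each comparison is one of libraries, and the standard error (SE) beside a level is the scatter over the bins of that gene.

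5hmC is made from 5-methylcytosine by TET enzymes and is abundant in neurons, where it is known to lie over the bodies of transcribed genes and to be scarce at their starts. Contactins are immunoglobulin-superfamily proteins held in the membrane by a lipid anchor. Contactin-associated proteins (Caspr proteins) are transmembrane relatives of neurexins that pair with them, as Cntn2 does with Cntnap2 beside the node of Ranvier, where potassium channels gather. In the developing cerebellum, contactins and Chl1, a member of the L1 family, act in the growth and targeting of axons of granule cells and interneurons.

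Over all bins of the table, the median level was 1.36% in the sleep-deprived library, 1.33% in the ACE-seq library and 1.36% in the control DDD-seq library. The levels are averages over all cells of the tissue, so a larger share of cells with 5hmC and more 5hmC per cell cannot be told apart. Of 7 lists of cell type genes, that of granule cells, the most numerous neurons of the cerebellum, had the highest median. It was 5.26% in the sleep-deprived library, 5.14% in the ACE-seq library and 5.36% in the control DDD-seq library, over the 3 of its 8 genes with at least 5 bins (Etv1, Fat2 and Kcnd2). These 3 genes were not uniformly high. They ranged from 1.87% to 6.70%, from 1.95% to 6.42% and from 1.82% to 6.52% in the same order of libraries. The other lists had medians between 1.16% (endothelial cells) and 2.04% (Purkinje cells) in the control DDD-seq library. These are levels of a DNA mark and not of RNA, so they do not show which cell types were present.

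Promoter windows were read for 8 of the 10 members from the RefSeq table of GRCm38.p6 (250 bases before to 50 after a listed start). The windows of 4 members are printed because the 10 kb bins holding their starts differ in 5hmC, as the start bins of Chl1 and Cntn1 were lower than the bins after them and those of Cntn6 and Cntn3 were higher. Bases run 5′ to 3′ on the strand of the gene, and capitals mark each CG, the dinucleotide that carries most cytosine methylation in mammals and reads the same on both strands. A CG was present in 94.6% of the 32851 promoter windows of the table, with a median of 7. The Chl1 window (chr6:103510626-103510925, plus strand) held 13 and the window at the first Cntn1 start (chr15:92050915-92051214, plus strand) held 9. The Cntn6 window (chr6:104492794-104493093, plus strand) held 4 and the Cntn3 window (chr6:102464618-102464917, minus strand) held 0.
Chl1: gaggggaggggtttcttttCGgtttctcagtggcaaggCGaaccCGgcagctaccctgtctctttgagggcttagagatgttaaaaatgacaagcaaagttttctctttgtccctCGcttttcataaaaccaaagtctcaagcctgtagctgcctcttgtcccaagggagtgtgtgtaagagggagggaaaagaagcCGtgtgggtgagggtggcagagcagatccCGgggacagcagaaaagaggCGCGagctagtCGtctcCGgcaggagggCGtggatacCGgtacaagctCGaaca
Cntn1: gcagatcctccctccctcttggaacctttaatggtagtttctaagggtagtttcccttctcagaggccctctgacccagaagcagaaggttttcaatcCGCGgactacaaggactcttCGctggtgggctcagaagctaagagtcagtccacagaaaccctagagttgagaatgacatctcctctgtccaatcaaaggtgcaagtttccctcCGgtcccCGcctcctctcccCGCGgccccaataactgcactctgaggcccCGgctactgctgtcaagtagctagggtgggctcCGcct
Cntn6: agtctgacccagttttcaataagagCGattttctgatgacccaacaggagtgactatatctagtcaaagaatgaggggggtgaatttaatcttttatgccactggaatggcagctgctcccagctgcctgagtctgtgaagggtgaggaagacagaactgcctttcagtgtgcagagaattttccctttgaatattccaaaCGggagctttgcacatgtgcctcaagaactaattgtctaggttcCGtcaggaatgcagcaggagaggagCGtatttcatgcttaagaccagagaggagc
Cntn3: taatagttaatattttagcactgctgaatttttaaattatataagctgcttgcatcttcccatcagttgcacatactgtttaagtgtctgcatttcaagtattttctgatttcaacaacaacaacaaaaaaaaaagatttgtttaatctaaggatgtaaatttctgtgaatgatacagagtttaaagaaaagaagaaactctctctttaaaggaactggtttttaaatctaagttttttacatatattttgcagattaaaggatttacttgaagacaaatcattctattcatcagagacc

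For description, the members were divided by these levels into a high group, an intermediate pair and a low group, with the same genes in each group in all 3 libraries. The high group was not even. From Chl1 to the next member the step was 0.82 points in the sleep-deprived, 0.38 in the ACE-seq and 0.98 in the control DDD-seq library. From Cntnap4 down to Cntnap2, across the lower edge of that group, it was 0.56, 0.46 and 0.53 points. Chl1, Cntn1, Cntn6 and Cntnap4 had gene-body levels of 2.72% to 4.10%, Cntnap2 and Cntn4 2.11% to 2.30%, and Cntn2, Cntn5, Cntn3 and Cntnap5a 1.27% to 1.76%. The median of the members was 2.22% in the sleep-deprived library, 2.19% in the ACE-seq library and 2.23% in the control DDD-seq library. The medians of all 6665 protein-coding genes of at least 5 bins were 1.53%, 1.49% and 1.54% in the same order. Long genes have higher levels: over the 9 members of at least 20 bins the medians were 2.26%, 2.26% and 2.30%, against 1.73%, 1.69% and 1.74% over all 1092 genes of that size.

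**Figure D1:**
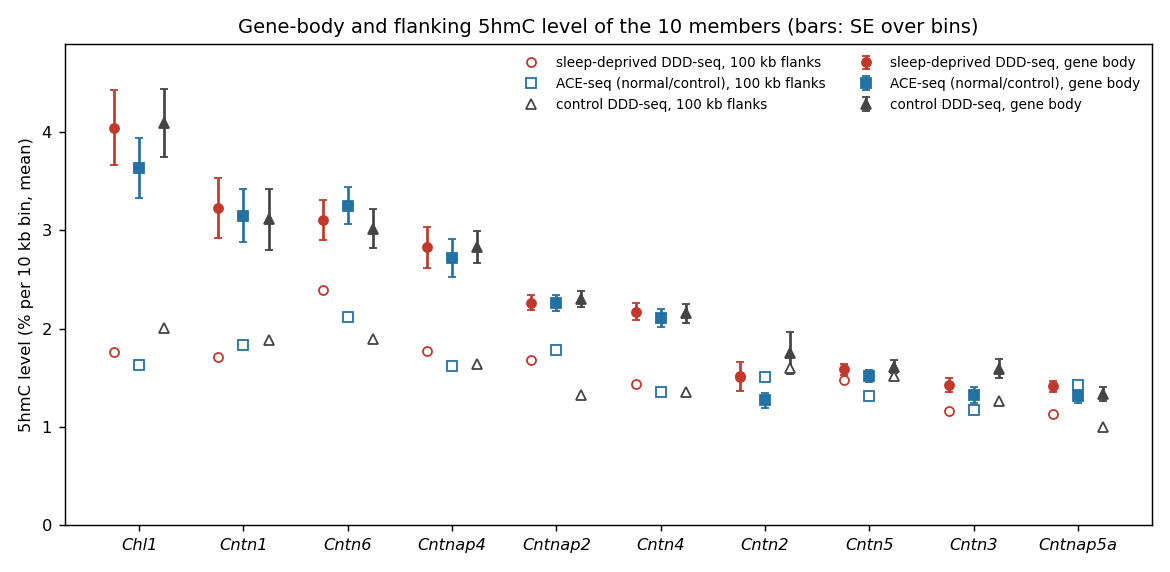
Gene-body 5hmC level (filled, mean over 10 kb bins in percent, bars SE over bins) and level of the 100 kb on either side (open) for each member in the sleep-deprived, ACE-seq and control DDD-seq libraries. Chl1 is highest in every library, and the filled points stand well above the open ones for Chl1, Cntn1, Cntnap4 and Cntn4 but not for Cntn5 or Cntn2.

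Chl1 encodes the close homolog of L1, a transmembrane adhesion molecule that guides axons of cerebellar interneurons along Bergmann glia. It lies on chromosome 6 (103510584 to 103733038). Its body level was 4.05% ± 0.38 in the sleep-deprived library, 3.63% ± 0.30 in the ACE-seq library and 4.10% ± 0.35 in the control DDD-seq library (SE over 23 bins). It was the highest member in each, above 98.7%, 97.6% and 98.8% of all genes of at least 5 bins. The flanks had 1.76%, 1.63% and 2.01%, so the body was 2.30, 2.23 and 2.04 times its surroundings. Single bins of Chl1 ranged from 1.62% to 7.26% in the sleep-deprived library, 1.40% to 6.20% in the ACE-seq library and 1.75% to 7.29% in the control DDD-seq library. Of its 23 bins, 14 (60.9%) had at least 3% in every library, which was the largest share among the members.

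Cntn1 encodes contactin-1, the partner of Cntnap1 at the paranodal junction of myelinated axons (chromosome 15, 92051152 to 92341967). Its body level was 3.23% ± 0.30 in the sleep-deprived library, 3.15% ± 0.27 in the ACE-seq library and 3.11% ± 0.31 in the control DDD-seq library (30 bins), against flanks of 1.71%, 1.83% and 1.88%. Cntn6, known as NB-3, acts at synapses that granule cells form on Purkinje cells (chromosome 6, 104492662 to 104863406). It had 3.11% ± 0.20 in the sleep-deprived library, 3.25% ± 0.19 in the ACE-seq library and 3.02% ± 0.19 in the control DDD-seq library (38 bins), against flanks of 2.39%, 2.12% and 1.89%. Cntnap4, which encodes Caspr4 and is known from GABAergic interneurons (chromosome 8, 112569798 to 112882707), had 2.83% ± 0.21, 2.72% ± 0.20 and 2.83% ± 0.16 in the same order (33 bins). Its flanks had 1.77%, 1.62% and 1.64%. These 3 genes lay between 92.0% and 96.1% of all genes in rank, and neighbours among them differed by less than the sum of their SEs in each library. The step from Chl1 to the next gene exceeded that sum in both DDD-seq libraries but not in the ACE-seq library, where it was 0.38 points against summed SEs of 0.49.

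Cntnap2 and Cntn4 are very long genes, of 2241 kb and 1023 kb, with intermediate levels. Cntnap2 encodes Caspr2, which clusters voltage-gated potassium channels beside the node (chromosome 6, 45060061 to 47301393). Its body level was 2.26% ± 0.08 in the sleep-deprived library, 2.26% ± 0.08 in the ACE-seq library and 2.30% ± 0.08 in the control DDD-seq library (225 bins), against flanks of 1.68%, 1.79% and 1.33%. Cntn4 encodes contactin-4, a binding partner of the amyloid precursor protein (chromosome 6, 105677632 to 106700141). It had 2.17% ± 0.09, 2.11% ± 0.09 and 2.16% ± 0.10 in the same order (104 bins), against flanks of 1.43%, 1.36% and 1.36%. The step from Cntnap4 down to Cntnap2 exceeded the sum of their SEs in each of the 3 libraries, whereas that from Cntnap2 to Cntn4 did not in any of them.

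The low group, named so by comparison with the other members, held both very long and short genes. Cntn5, known as NB-2 and studied in the auditory pathway (chromosome 9, 9634223 to 10904775), had 1.58% ± 0.06 in the sleep-deprived library, 1.52% ± 0.06 in the ACE-seq library and 1.61% ± 0.07 in the control DDD-seq library over 128 bins. Cntnap5a, one of the Caspr5 genes (chromosome 1, 115684737 to 116587323), had 1.41% ± 0.06, 1.31% ± 0.07 and 1.34% ± 0.07 in the same order over 91 bins. It ranked above 37.6%, 30.0% and 28.6% of all genes. Cntn3, which promotes the growth of neurites (chromosome 6, 102163304 to 102564614), had 1.43% ± 0.08, 1.32% ± 0.09 and 1.59% ± 0.10 over 41 bins. Cntn2, also called TAG-1 and made by granule cells as they extend their axons (chromosome 1, 132509425 to 132543251), covers only 5 bins and had 1.51% ± 0.15, 1.27% ± 0.08 and 1.76% ± 0.21. In the same order, Cntn5 ranked above 54.5%, 52.2% and 56.2% of all genes. Cntn3 ranked above 39.3%, 31.6% and 54.7%, and Cntn2 above 48.1%, 25.5% and 65.7%. Between neighbours in the order of levels, 3 of 9 steps in the sleep-deprived library, 3 of 9 in the ACE-seq library and 4 of 9 in the control DDD-seq library exceeded the sum of the SEs. The order within the low group differed between libraries, with Cntnap5a lowest in the sleep-deprived and the control DDD-seq libraries and Cntn2 lowest in the ACE-seq library.

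A body at least 1.2 times its flanks was counted as raised. In the sleep-deprived library 8 of 10 members passed, against 35.4% of all genes of at least 5 bins. In the ACE-seq library 6 of 10 passed, against 36.9%, and in the control DDD-seq library 8 of 10, against 36.1%. Among genes of at least 20 bins, 8, 6 and 8 of 9 members passed, against a higher background of 51.6%, 52.2% and 50.7% of 1092 genes. The 6 members that passed in all 3 libraries were Cntn1, Cntn4, Cntn6, Chl1, Cntnap2 and Cntnap4. Cntn3 and Cntnap5a passed in both DDD-seq libraries, with ratios of 1.22 and 1.24 in the sleep-deprived and 1.26 and 1.34 in the control library. In the ACE-seq library they had 1.13 and 0.92. Cntn5 and Cntn2 passed in none, and the ACE-seq ratio of Cntn2 was 0.84. Several of these calls depended on the flank. With flanks of 50 kb and 200 kb, Cntn3 fell short in the sleep-deprived library (1.19 and 1.18) and Cntnap2 in the ACE-seq library (1.103 and 1.169). Cntnap5a then had 1.12 and 1.17 in the sleep-deprived library and 1.13 and 1.15 in the control DDD-seq library. With flanks of 200 kb, Cntn5 passed in the sleep-deprived library (1.22) and just passed in the ACE-seq library. With medians over bins, Cntn3 passed in the ACE-seq library (1.28) and not in the control DDD-seq library (1.07), Cntn5 passed in the sleep-deprived (1.23) and the control DDD-seq (1.26) libraries, and Cntnap2 had 1.07 in the ACE-seq library. The flanks of Cntn2 include part of Nfasc on one side, and Rbbp5 and Dstyk on the other, whereas 7 of the other 9 members had no protein-coding gene within 100 kb. With only gene-free flank bins, Cntn2 passed in the sleep-deprived library (1.297).

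The level also varied along the gene. When the body was divided into 3 equal parts from its 5′ end, the first part was at least 1.2 times the last in 5 of the 7 members with a known strand and at least 20 bins, in each library. The background was 35.8% of 826 such genes in the sleep-deprived library, 38.0% in the ACE-seq library and 36.3% in the control DDD-seq library. Cntn1, Cntn6, Chl1 and Cntnap2 passed in all 3 libraries. Cntn5 passed in both DDD-seq libraries and Cntn3 in the ACE-seq library. With 2 parts in place of 3, the count in the control DDD-seq library was 3 of 7. This measure, like those on start bins and on bins of at least 3%, was chosen after the values were seen.

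**Figure D2:**
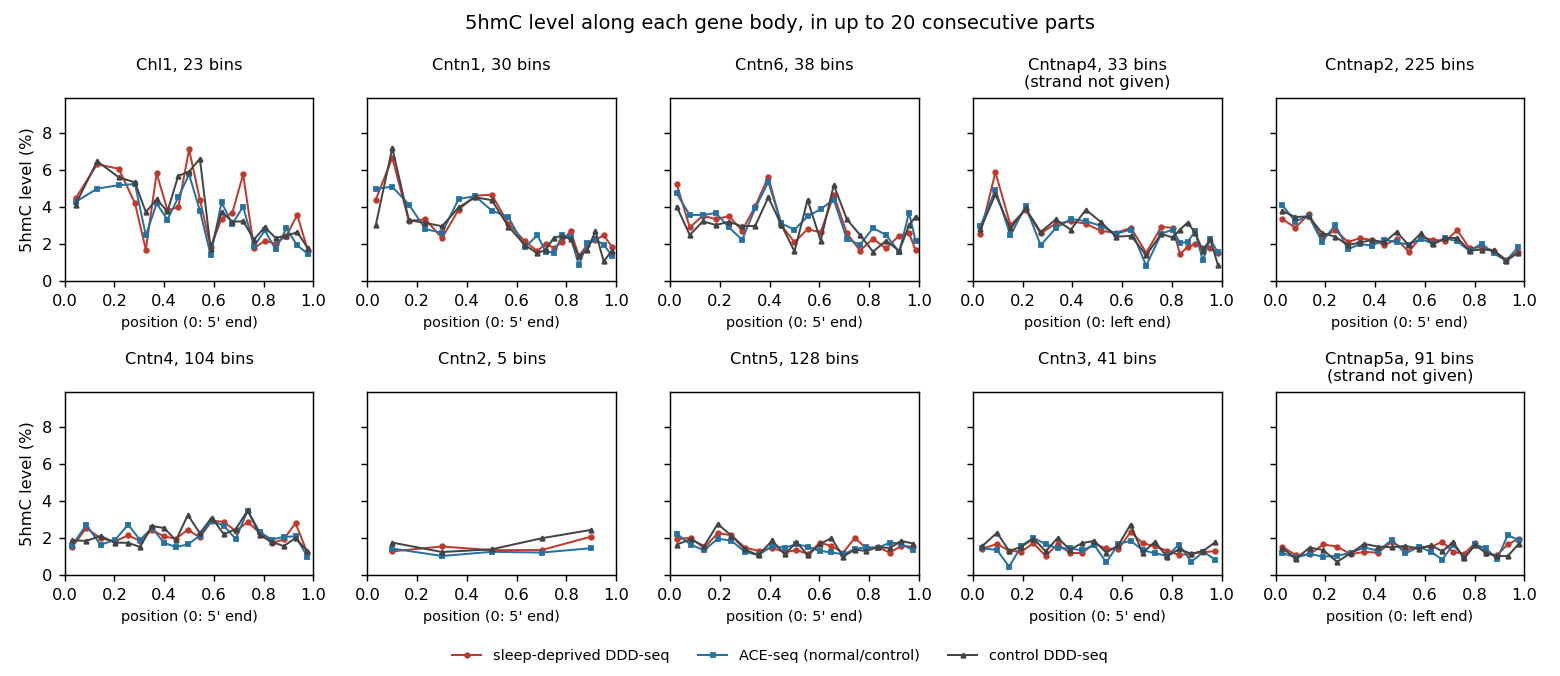
5hmC level in percent (vertical axis) along each member's body in up to 20 consecutive parts (horizontal axis, from the 5′ end, or from the left end where no strand was available), 1 line per library. In all 3 libraries the level is lower toward the 3′ end in Chl1, Cntn1, Cntn6 and Cntnap2, while Cntn5, Cntn3 and Cntnap5a stay at or below 2.75% in every part, with a lowest value of 0.44% in Cntn3 by ACE-seq.

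In Cntn1 the first, middle and last parts had 3.99%, 3.68% and 2.01% after sleep deprivation, 3.93%, 3.63% and 1.90% by ACE-seq, and 3.92%, 3.55% and 1.87% in the control DDD-seq library. The first part was thus 1.98, 2.07 and 2.10 times the last. In Chl1 the 3 parts had 4.95%, 4.26% and 2.77% after sleep deprivation, 4.58%, 3.79% and 2.37% by ACE-seq, and 5.19%, 4.39% and 2.51% in the control DDD-seq library. In Cntnap2 they had 2.82%, 2.12% and 1.84%, then 2.97%, 2.06% and 1.75%, and 2.94%, 2.23% and 1.72%, in the same order of libraries. In Cntn6 the first and last parts had 3.57% and 2.15%, 3.55% and 2.35%, and 3.11% and 2.42%. The middle part of Cntn6 was the highest in the ACE-seq and the control DDD-seq libraries, with 3.79% and 3.48%.

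Cntn4 did not follow this pattern. Its middle part was the highest in each library, with 2.37% in the sleep-deprived, 2.15% in the ACE-seq and 2.502% in the control DDD-seq library, against first parts of 1.99%, 2.05% and 1.85%. The starts listed by RefSeq for Cntn4 lie 441 kb inside its annotated body. Upstream of them the level was 2.03%, 2.07% and 1.99% over 44 bins, and downstream it was 2.28%, 2.14% and 2.28% over 59 bins. No strand was available for Cntnap4 and Cntnap5a, and they were not counted.

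At its start, Chl1 showed a local dip. The bin that holds the start (103510001 to 103520000) had 3.02% in the sleep-deprived library, 2.94% in the ACE-seq library and 2.84% in the control DDD-seq library. The next 3 bins averaged 6.18%, 5.202% and 6.13%, and the bin just before the start had 5.18%, 5.07% and 5.55%. In Cntn1 the start bin had 3.33%, 3.92% and 2.86%, against 6.26%, 5.42% and 5.85% in the next 3 bins. Cntn6 did not dip: its start bin had 4.36%, 4.83% and 3.31%, against 3.98%, 3.93% and 3.24% next to it. At Cntn3, whose listed start lies 99.9 kb inside the body, the start bin was the second highest of the gene by the mean of the libraries, with 1.91%, 2.33% and 2.06%, against 1.28%, 1.53% and 1.37% in the next 3 bins.

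A start bin below the mean of the next 3 was found, Cntn2 included, in 5 of 8 members in the sleep-deprived library (75.4% of 826 genes of at least 20 bins), 4 of 8 in the ACE-seq library (70.2%) and 2 of 8 in the control DDD-seq library (74.8%). Only Chl1 and Cntn1 were below in all 3 libraries. Of the windows printed above, theirs held 13 and 9 CG, and those of Cntn6 and Cntn3 held 4 and 0. Further starts of Cntn1, 77.0 and 110.2 kb inside its body, had windows with 5 and 4 CG. The other members gave no such order: Cntn5 held 26 CG, Cntnap2 14 at its first start, Cntn2 13, and the Cntn4 windows 4 and 12. Each of these genes was below in some libraries and not in others. A window of 300 bases is a small part of a 10 kb bin, and the level of the window itself was not measured.

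Bins were ranked within each gene by the mean of the 3 libraries. In Cntn1 the highest bin was the third from the start (92070001 to 92080000), with 9.15% in the sleep-deprived, 7.13% in the ACE-seq and 9.67% in the control DDD-seq library. It was the highest bin of any member in every library. The next highest bin of Cntn1 (92200001 to 92210000) had 6.39%, 4.82% and 5.64%. In Chl1 the top bins were 103560001 to 103570000, with 7.01%, 6.20% and 6.01%, and 103530001 to 103540000, with 7.26%, 4.49% and 7.29%. Both lie in the 5′ part of the gene.

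In Cntn6 the top bins were 104730001 to 104740000 (6.31% in the sleep-deprived, 5.15% in the ACE-seq and 7.08% in the control DDD-seq library) and 104630001 to 104640000 (5.71%, 5.50% and 4.63%). In Cntnap4 they were 2 adjoining bins, 112580001 to 112590000 (6.77%, 5.86% and 4.69%) and 112590001 to 112600000 (4.98%, 4.02% and 4.70%). Cntnap2 reached 6.94%, 6.08% and 6.91% at 45360001 to 45370000. Its next bin, 46200001 to 46210000, was uneven between libraries, with 4.82%, 4.49% and 8.04%. Cntn4 reached 5.68%, 3.69% and 5.27% at 106260001 to 106270000, and 3.78%, 2.93% and 5.36% at 106440001 to 106450000.

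Among the low genes, Cntn5 reached 3.93% in the sleep-deprived library, 4.11% in the ACE-seq library and 5.31% in the control DDD-seq library at 10610001 to 10620000 of chromosome 9, and 3.40%, 2.22% and 4.50% at 10680001 to 10690000. Cntn3 reached 2.68%, 3.01% and 4.22% at 102300001 to 102310000, followed by its start bin. Cntnap5a stayed lower, with 2.51%, 2.23% and 3.49% at 115990001 to 116000000 and 2.61%, 2.21% and 2.84% at 116400001 to 116410000. Cntn2 had 2.07%, 1.44% and 2.43% at 132500001 to 132510000, a bin that overlaps only the 3′ end of the gene and lies almost wholly outside it. Its next bin, 132510001 to 132520000, had 1.34%, 1.21% and 1.98%, which was below the mean of the gene in the sleep-deprived and the ACE-seq libraries.

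Of the 718 member bins, 66 (9.19%) had at least 3% in every library, against 5.29% of the 117494 bins over protein-coding genes. Chl1 held 14 of the 66, Cntnap2 17, Cntn1 11, Cntn6 10, Cntnap4 10, Cntn4 3 and Cntn5 1. Cntn2, Cntn3 and Cntnap5a held none. At the 3′ end of Cntnap2, the 3 bins from 47140001 to 47170000 were listed at 0 in all 3 libraries, and the bin before them at 0 in the control DDD-seq library only. No other bin of a member was listed at 0.

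The correlation of the libraries across the bins of a gene varied between members. Across the bins of a gene, Pearson's r between the sleep-deprived and the control DDD-seq libraries was 0.92 in Cntn1 (30 bins), 0.81 in Chl1 (23) and 0.79 in Cntnap4 (33). It was 0.68 in Cntn6 (38), 0.65 in Cntnap2 (225), 0.63 in Cntn2 (5), 0.61 in Cntn5 (128), 0.53 in Cntn4 (104), 0.44 in Cntn3 (41) and 0.19 in Cntnap5a (91). Between the ACE-seq and the control DDD-seq libraries, r was 0.84 in Chl1, 0.81 in Cntn1, 0.80 in Cntnap4 and 0.72 in Cntn2. It was 0.60 in Cntnap2, 0.51 in Cntn3, 0.50 in Cntn6, 0.37 in Cntn5, 0.36 in Cntn4 and 0.35 in Cntnap5a. Chl1, Cntn1 and Cntnap4 had the highest r in both pairs of libraries, while Cntn6, which also had a high level, lay below Cntn2 and Cntn3 in the second pair. These are descriptions across neighbouring bins of the same DNA, which share base composition and are not independent. Pearson's r also depends on how far the bins of a gene spread, so a low r need not mean large differences between libraries. In the control DDD-seq library the standard deviation over bins was 1.69 points in Cntn1 and 1.66 in Chl1. It was 0.99 in Cntn4, 0.93 in Cntnap4, 0.68 in Cntnap5a and 0.63 in Cntn3.

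Of the 10 genes, 5 lie on chromosome 6, and Cntn3, Chl1, Cntn6 and Cntn4 follow each other over 4.54 Mb with no other protein-coding gene between them. The level was low over Cntn3, high over Chl1 and Cntn6, and intermediate over Cntn4. The 946 kb gap between Cntn3 and Chl1 had 1.40% ± 0.07 in the sleep-deprived library, 1.34% ± 0.07 in the ACE-seq library and 1.42% ± 0.08 in the control DDD-seq library (SE over 94 bins). The 814 kb gap between Cntn6 and Cntn4 had 1.47% ± 0.06, 1.45% ± 0.08 and 1.47% ± 0.08 (80 bins).

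**Figure D3:**
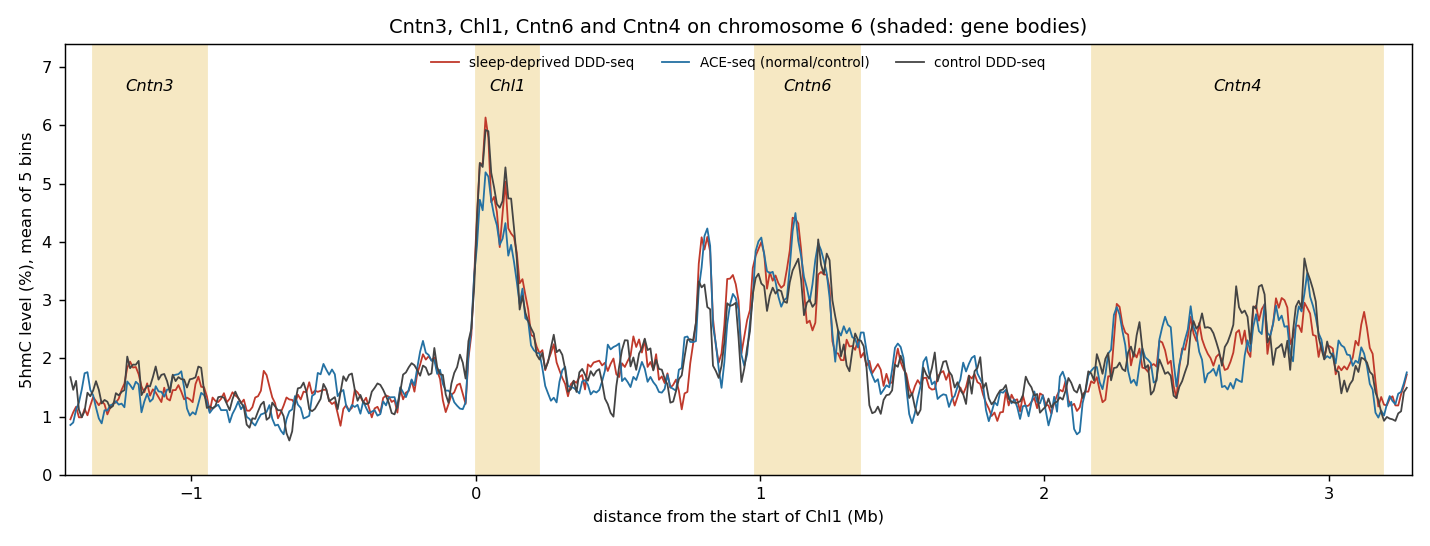
5hmC level in percent (running mean of 5 bins) by distance from the start of Chl1 in Mb, with 1 line per library and the bodies of Cntn3, Chl1, Cntn6 and Cntn4 shaded. All 3 lines are highest over the 5′ part of Chl1 and decline along it, and separate peaks stand in the gap before Cntn6.

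The 760 kb gap between Chl1 and Cntn6 was higher, with 2.13% ± 0.13 in the sleep-deprived library, 1.97% ± 0.13 in the ACE-seq library and 2.01% ± 0.11 in the control DDD-seq library (75 bins). It held 4 bins of at least 3% in every library, the gap before Chl1 held 1 and the gap before Cntn4 held 0. The highest was 104310001 to 104320000, which lies 173 kb before Cntn6 and had 7.46%, 7.87% and 6.04%. This exceeded every bin of Cntn6 itself in the sleep-deprived and the ACE-seq libraries. The other 3 bins began at 104400001, 104410001 and 104480001, and no RefSeq gene of any type overlapped the 4 bins. The left flank of Cntn6, which does not reach the highest of these bins, had 3.05%, 2.59% and 2.55%, against 1.74%, 1.65% and 1.24% on its right.

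Sleep deprivation was the condition tested by the study, and most members had nearly equal levels in the sleep-deprived and the control DDD-seq libraries. A body at least 1.1 times higher or lower was counted as a difference. In the higher direction 0 of 10 members passed, against 15.8% of all genes of at least 5 bins, and in the lower direction 2 of 10 passed, against 16.9%. These were Cntn2, at 0.86 of the control, and Cntn3, at 0.89. Of the 9 members of at least 20 bins, 0 passed as higher and 1 as lower, against 5.40% and 4.76% of all genes of that size. The median ratio of all genes tested was 0.998.

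**Figure D4:**
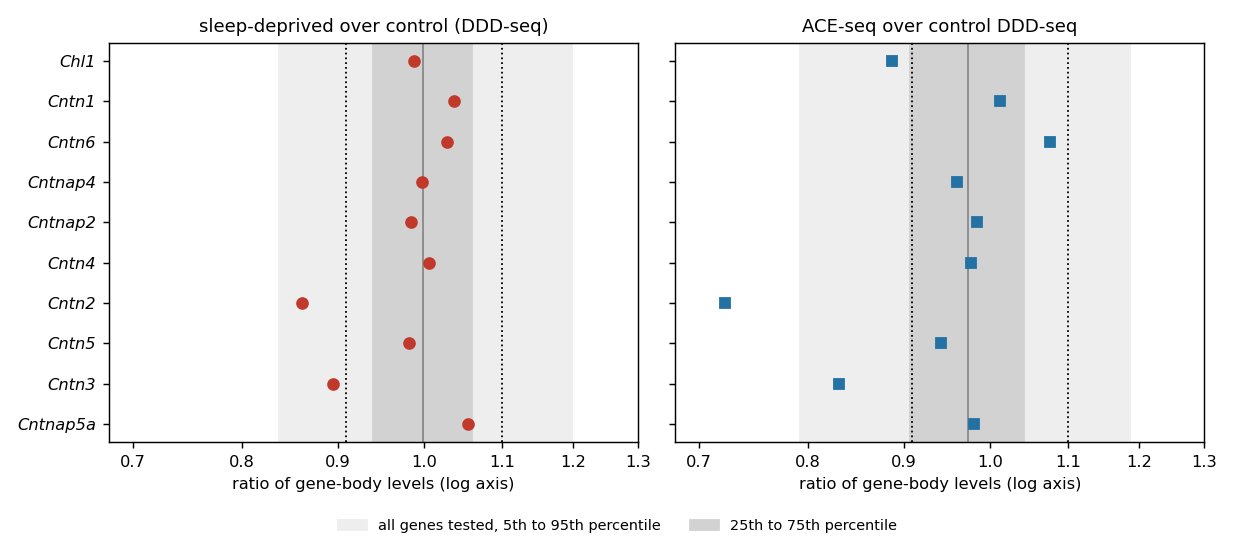
Ratio of gene-body levels (log axis) of the sleep-deprived to the control DDD-seq library (left) and of the ACE-seq to the control DDD-seq library (right), 1 point per member. Bands give the middle ranges of all genes tested and dotted lines the 1.1-fold bounds. Cntn2 and Cntn3 lie below the lower bound in both panels, Chl1 in the right one, and no member lies above the upper bound.

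Cntn3 differed by -0.17 ± 0.09 percentage points, as sleep-deprived minus control (SE of the difference by bin, 41 bins). In Cntn2 the difference was -0.24 ± 0.17 over its 5 bins, with 2.07%, 1.34%, 1.34%, 1.53% and 1.27% in the sleep-deprived library and 2.43%, 1.98%, 1.38%, 1.24% and 1.74% in the control DDD-seq library, from left to right. The Cntn2 bins overlapped between these libraries, and 1 of the 5 was higher after sleep deprivation. Neither call held when only bins wholly inside the gene were used, where the ratios were 0.92 and 0.91. By the median over bins, Cntn3 was at 1.01 of the control.

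The high members stayed within the bound. Their differences, as sleep-deprived minus control, were -0.05 ± 0.23 points in Chl1, 0.11 ± 0.12 in Cntn1, 0.09 ± 0.16 in Cntn6 and -0.01 ± 0.13 in Cntnap4. It was -0.04 ± 0.07 in Cntnap2, 0.01 ± 0.09 in Cntn4, -0.03 ± 0.06 in Cntn5 and 0.07 ± 0.08 in Cntnap5a. The flanks of some members differed more than their bodies. At Cntnap2 they had 1.68% in the sleep-deprived library, against 1.33% in the control, and at Cntn6 2.39% against 1.89%.

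The ACE-seq library addressed the question of how the deamination methods compare, and it shares its reference, the control DDD-seq library, with the comparison above. In the higher direction 0 of 10 members passed the 1.1-fold bound, against 13.2% of all genes, and in the lower direction 3 of 10, against 25.6%. Of the 9 members of at least 20 bins, 0 passed as higher and 2 as lower, against 2.56% and 12.9% of all genes of that size. The 3 members lower by ACE-seq were Cntn2 (0.72), Cntn3 (0.83) and Chl1 (0.89). The median ratio of all genes was 0.973. With each library divided by its median, 19.2% of all genes passed as higher and 18.2% as lower, Cntn6 passed as higher (1.11), and Chl1 no longer passed as lower (0.92).

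The ACE-seq minus control DDD-seq difference was -0.46 ± 0.19 points in Chl1, -0.27 ± 0.09 in Cntn3 and -0.49 ± 0.17 in Cntn2. In Chl1 the medians over bins were 3.80% by ACE-seq and 3.75% by control DDD-seq, a ratio of 1.01. With medians, Cntn3 had a ratio of 0.93. In Cntn2 all of the bins were lower by ACE-seq, with 1.44%, 1.21%, 1.25%, 1.02% and 1.42% from left to right. Cntn6 had the largest difference in the other direction, 0.23 ± 0.19 points. In the 6 other members the difference lay between -0.11 points in Cntnap4 and 0.04 points in Cntn1.

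The other genes of the family and known binding partners of these proteins formed a list of 25 genes, of which 20 had at least 5 bins. Their median body level was 1.85% in the sleep-deprived library, 1.86% in the ACE-seq library and 1.89% in the control DDD-seq library, below the medians of the 10 members. Gene size was not matched here: 9 of the 10 members had at least 20 bins, while the list also holds many shorter genes. The highest were Adam22, encoding a receptor of the secreted protein Lgi1, with 3.49%, 3.86% and 3.56%, and App, encoding the amyloid precursor protein that contactins bind, with 3.38%, 3.50% and 3.54%. Aplp2, its homolog, had 3.20%, 3.09% and 3.06%, and Nrcam, an L1-family relative of Chl1 that binds contactins, 3.02%, 2.91% and 3.12%. By control DDD-seq, Cntnap3 was the lowest of the 20 with 0.92%, 0.86% and 0.72%, followed by Cntnap5c with 1.199%, 1.18% and 1.16%.

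Of these 20 genes, 11 were raised over their flanks in the sleep-deprived library, 14 in the ACE-seq library and 11 in the control DDD-seq library. The shares of all genes of at least 5 bins were 35.4%, 36.9% and 36.1%. The list mixes genes below and above 20 bins, and among all genes of at least 20 bins the shares were 51.6%, 52.2% and 50.7%. Between the sleep-deprived and the control DDD-seq libraries, Tnr (1.12) and Cntnap3 (1.26) passed the 1.1-fold bound as higher, and Tnc (0.894) and Mpp4 (0.862) as lower. These are 2 of 20 in each direction, against 15.8% of all genes higher and 16.9% lower. Between the ACE-seq and the control DDD-seq libraries, Cntnap3 (1.18) passed as higher and Itgb1 (0.877) as lower, which is 1 of 20 in each direction, against 13.2% of all genes higher and 25.6% lower. Tnr and Tnc encode tenascins, matrix proteins that bind contactins. Tnr, Tnc, Mpp4 and Itgb1 are named after their values were seen.

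By body level in the 3 libraries, the genes of at least 20 bins nearest to Chl1 were Lhfp (3.92% in the sleep-deprived, 3.75% in the ACE-seq and 4.02% in the control DDD-seq library), Hivep2 (4.14%, 3.82% and 4.09%) and Syt1 (4.05%, 3.85% and 3.98%). Their distances from Chl1, as the root of the summed squared differences, were 0.19, 0.21 and 0.24 points. Nearest to Cntnap5a were Tcf7l2, Tmtc1 and Cfap54, at 0.025, 0.037 and 0.044 points. Closeness over 3 libraries says only that the levels are alike.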

How the data were processed

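Genomic DNA of 3 mouse cerebellum libraries was profiled for 5hmC. The authors deposited 1 table with a fraction per 10 kb bin and library, per the file headers; it was multiplied by 100 and is given in percent. FastQC, Trimmomatic and Bismark were used, per the submitters' processing notes. The averaging, cytosine contexts, coverage filter and depth are not given in the sources used here, so no counting interval was possible. "All" stands in the names of the 2 DDD-seq columns, and each, possibly a pool of several runs or libraries, is taken as the authors' value for its group. The notes name hg19, but the bins cover 21 mouse chromosomes and end 1.33 to 211.9 kb after the last RefSeq gene of GRCm38.p6, so GRCm38 was used. A gene's level was the mean over its overlapping bins with a value in every library (Python 3.11.15, numpy 2.4.6, pandas 2.3.3, matplotlib 3.10.9). Calls were ratios of at least 1.2 (body over flanks, first over last part) or 1.1 (between libraries). Only the sleep-deprived to control ratio was checked on simulated data, in genes of at least 20 bins. Strand came from the RefSeq promoter table. All members were named, with the 2 highest bins of each; of the partner list the 4 highest and 2 lowest measured genes by control DDD-seq; and the 3 genes nearest to the highest and lowest member. Members, lists and rules were chosen with earlier results of these data known. Alternatives were bin overlap, median, bins at 0 or at 20% or more, flank width and content, scaling and gene size.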

Additional observations from a re-analysis of the deposited data

How the results depend on the processing

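No paired analysis was possible because each group has 1 library. Of 75 recomputed counts and medians, 67 stayed within 1.5 times the reported count or, for medians, within a bound set by the members' SEs over bins. Among them were all 24 counts of members raised over their flanks. That bound is wide: with flanks of 50 kb the count in the sleep-deprived library fell from 8 to 6 and still lay within it. The genes that passed also changed, as given above. With medians over bins, the median of the members was 1.97% (sleep-deprived) and 1.98% (ACE-seq), 1 member was lower after sleep deprivation, and 1 was lower by ACE-seq. In single genes, the median turned the sleep-deprived to control ratio of Cntn3 to 1.01 and the ACE-seq to control DDD-seq ratio of Chl1 to 1.01. With bins wholly inside the gene, 0 members were lower after sleep deprivation. Among genes of at least 20 bins 1 was, since Cntn2 is then not tested. With each library divided by its median, 1 member, Cntn6, was higher by ACE-seq. With 2 parts in place of 3, an alternative chosen after seeing the data, 3 members passed in the control DDD-seq library. Where no construction is named, the cause was not tested. Leaving out bins at 0 or at 20% or more ended no call between libraries. With 1 library per group and no depth, differences between libraries cannot be told apart from differences between animals or preparations.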

Other observations

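The Caspr5 genes, which are 3 in the mouse, had low levels in each library. Cntnap5b had 1.19% in the sleep-deprived library, 1.28% in the ACE-seq library and 1.27% in the control DDD-seq library over 73 bins, and Cntnap5c had 1.199%, 1.18% and 1.16% over 66 bins. Cntnap5a, with 1.41%, 1.31% and 1.34%, was the highest of the 3 in every library. Its step over Cntnap5b exceeded the sum of their SEs in the sleep-deprived library only. The SEs were 0.06, 0.07 and 0.07 points in Cntnap5a and 0.05, 0.07 and 0.08 points in Cntnap5b. How alike their sequences are was not measured, and the sources used here do not say how reads with several positions were handled.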
